A study of Mus musculus with 2 samples.

Results

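The BCL2 family, the caspases and the inhibitors of apoptosis were followed as 34 genes in sorted macrophages of mice that carried acute myeloid leukaemia. The genes were taken by their symbols from the 16428 genes with a read in either of 2 RNA-seq libraries, 1 from bone marrow (marrow hereafter) and 1 from spleen. All 34 had reads in the marrow library and 33 had reads in the spleen library. The recipients were C57BL/6J mice, 6 to 8 weeks old, that had not been irradiated and had each received 500000 GFP-labelled leukaemia cells of the MLL-AF9 model, in which a fusion oncogene drives the disease. Macrophages were taken at day 15, where survival is given as 25 to 30 days, so both libraries come from leukaemic mice. Healthy macrophages were not analysed here. The sources used here give neither the surface markers of the sort nor the number of mice pooled.

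Apoptosis through mitochondria is governed by the BCL2 family. Its survival proteins hold the pore-forming effectors BAX and BAK in check, and BH3-only proteins, which share a short helix that docks into a groove on the survival proteins, release that hold. Once the outer mitochondrial membrane opens, cytochrome c assembles with APAF1 to activate caspase-9, which activates the executioner caspases, while IAP proteins (inhibitors of apoptosis) restrain caspases or steer death-receptor complexes towards NF-kB signalling. Death receptors act through FADD and caspase-8, and where caspase-8 is blocked, RIPK1, RIPK3 and MLKL can carry out necroptosis, a lytic form of death. Myeloid cells express the survival proteins MCL1 and BCL2A1, while mature lymphocytes depend on BCL2. Whether the macrophages studied here depend on any of these proteins was not tested.

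After scaling, the libraries had effective depths of 9405947 (marrow) and 8457857 reads (spleen). Read numbers of the 34 genes ran from 6 to 3976 in marrow, with a median of 346.5, and from 0 to 7963 in spleen, with a median of 413.5. All 16 macrophage markers on a fixed list had reads in both libraries, among them Adgre1 and Csf1r, and their summed level was 692 CPM (reads scaled to a common library size) in marrow and 1434 CPM in spleen. By the 2-fold rule, spleen had the higher level for 8 of these 16 and marrow for 0, and their log2 ratios (marrow minus spleen) had a median of -1.04. Markers of other cells were also present. Of 20 neutrophil and granulocyte precursor genes, 18 were measured and 17 were at least 2-fold higher in marrow, with sums of 49008 and 2292 CPM, while Azu2 and Ly6g had no read in either library. All 12 B cell genes and all 12 T cell genes leaned at least 2-fold towards spleen, with sums of 476 and 5428 CPM for B cells and 287 and 1877 CPM for T cells, marrow first. Conventional dendritic cell genes were higher in spleen in 9 of 10 cases, with sums of 196 and 1338 CPM. Stem, progenitor and MLL-AF9-associated genes were higher in marrow in 8 of 10 cases (1486 and 376 CPM, Mecom with no read in spleen), as were 7 of 9 measured megakaryocyte and platelet genes (416 and 90.7 CPM, Gp6 with no read in either). All 20 genes of cycling cells were higher in marrow, with sums of 5012 and 1345 CPM. Erythroid genes differed least, with 1 of 8 higher in spleen and sums of 330 and 217 CPM. In RNA from a whole sorted sample, fewer cells of a type and less RNA per cell cannot be told apart, and the part of these other cells in the results below was not tested.

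The sequences of the Bcl2a1 copies are shown first, because they limit what the counts of those genes can mean. Mice carry several near-identical copies of Bcl2a1, and only reads with a single placement were counted. In the GENCODE M21 transcripts (GRCm38), the coding sequences of Bcl2a1a, Bcl2a1b and Bcl2a1d were each 519 bases long and differed from one another at 12 positions in all. Pairwise identity was 97.9% between Bcl2a1a and Bcl2a1b, 98.7% between Bcl2a1a and Bcl2a1d, and 98.8% between Bcl2a1b and Bcl2a1d. The longest stretch shared by all 3 copies ran for 217 bases, from coding base 95 to coding base 311. The 60 coding bases with the most differences are the first 60, with the 6 differing positions in capitals:
Bcl2a1a: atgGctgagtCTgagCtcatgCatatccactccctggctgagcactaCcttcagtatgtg
Bcl2a1b: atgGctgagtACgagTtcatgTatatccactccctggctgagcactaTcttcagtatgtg
Bcl2a1d: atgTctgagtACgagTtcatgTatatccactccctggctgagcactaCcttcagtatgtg
With windows of 50 bases, 32.3% of the windows of the Bcl2a1a transcript, 42.4% of those of Bcl2a1b and 20.5% of those of Bcl2a1d occurred in neither of the other copies. The sources used here do not give the read length.

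The deposited coverage column, the percent of a gene's length touched by reads, was low for these copies. Bcl2a1b had 57 reads over 56.8% of its length in marrow and 386 reads over 58.4% in spleen. Genes of similar length and read density had a median coverage of 87.8% in marrow and 96.6% in spleen, so the added reads of the spleen library left Bcl2a1b coverage almost where it was. Bcl2a1a coverage was 40.3% in marrow and 47.2% in spleen, and Bcl2a1d coverage was 28.9% and 31.8%, against medians of 91.1% and 94.2% for genes of similar density in spleen. In marrow, where Bcl2a1a had 15 reads and Bcl2a1d had 12, those medians were lower, at 53.85% and 47.91%. Of 283 such genes, 1.06% were covered as little as Bcl2a1d in spleen. Reads that fit several copies are not counted by unique placement, so the split among the copies is uncertain. Their total level can also come out too low beside other genes. The remaining genes were covered over most of their length where reads were plentiful. Among the lower values were Bad (64.1% and 63%), Diablo (72.8% and 71.7%), Birc5 (83% and 66.6%) and Bbc3 (76.5% and 78%). Casp8, with 960 and 964 reads, was covered at 86% and 88.5%.

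**Figure D1:**
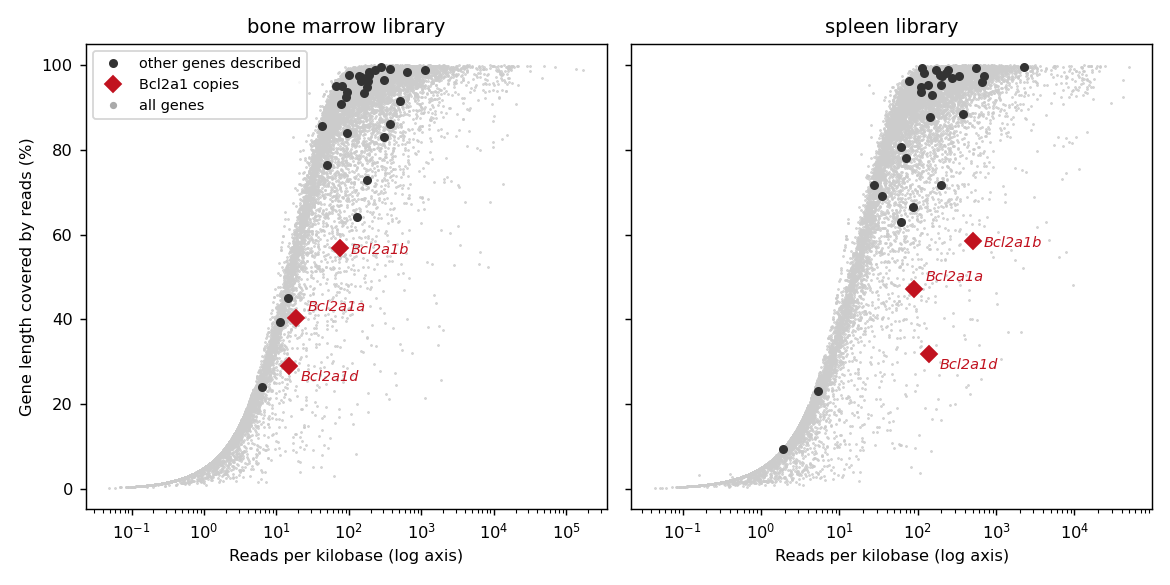
Percent of each gene's length covered by reads against reads per kilobase (log axis) in the marrow library (left) and the spleen library (right); grey points are all genes, black points the genes described here and red diamonds the Bcl2a1 copies. The red diamonds lie below the main band of genes in spleen, where Bcl2a1b reached 58.4% with 386 reads.

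Of the 34 genes, 8 were higher in spleen, namely 4 survival genes (Mcl1 and the 3 near-identical Bcl2a1 copies), 2 BH3-only genes and 2 IAP genes, and 4 were higher in marrow. The floor for a comparison was 1 CPM together with 10 reads in either library, and 33 of the 34 genes reached it. A difference of at least 2-fold on log2(CPM + 1) was found towards spleen for those 8 (Mcl1, Bcl2a1a, Bcl2a1b, Bcl2a1d, Bmf, Pmaip1, Birc2 and Birc3), where the background over 12970 measured genes was 14.6%. Towards marrow there were 4 (Bok, Casp12, Birc5 and Mlkl), where the background was 14.1%. The other 21 lay within 2-fold. The share towards spleen was 24.2% and that towards marrow 12.1%, so the marrow share is near its background. Counting the Bcl2a1 copies apart adds to the spleen side: without them 5 of 30 genes were higher in spleen, a share close to the background. Bok and Casp12 passed the read floor only in marrow, the library where they were high. Among the 31 genes past the floor in both libraries, 8 were higher in spleen and 2 in marrow, against 12.8% and 12.5% of all such genes. The median log2 ratio, marrow minus spleen, was -0.22 over the 33 genes and 0.03 over all measured genes, and it was -0.02 without the Bcl2a1 copies. Under a 4-fold rule on the same scale, Mlkl was the 1 gene higher in marrow (background 4.42%), and Pmaip1, Bcl2a1b, Bcl2a1d and Birc3 were higher in spleen (background 4.09%). By CPM ratio alone, Casp12 (6.83-fold towards marrow) and Bcl2a1a (5.34-fold towards spleen) were also past 4-fold, at low counts. Bok, with no read in spleen, has no finite ratio.

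**Figure D2:**
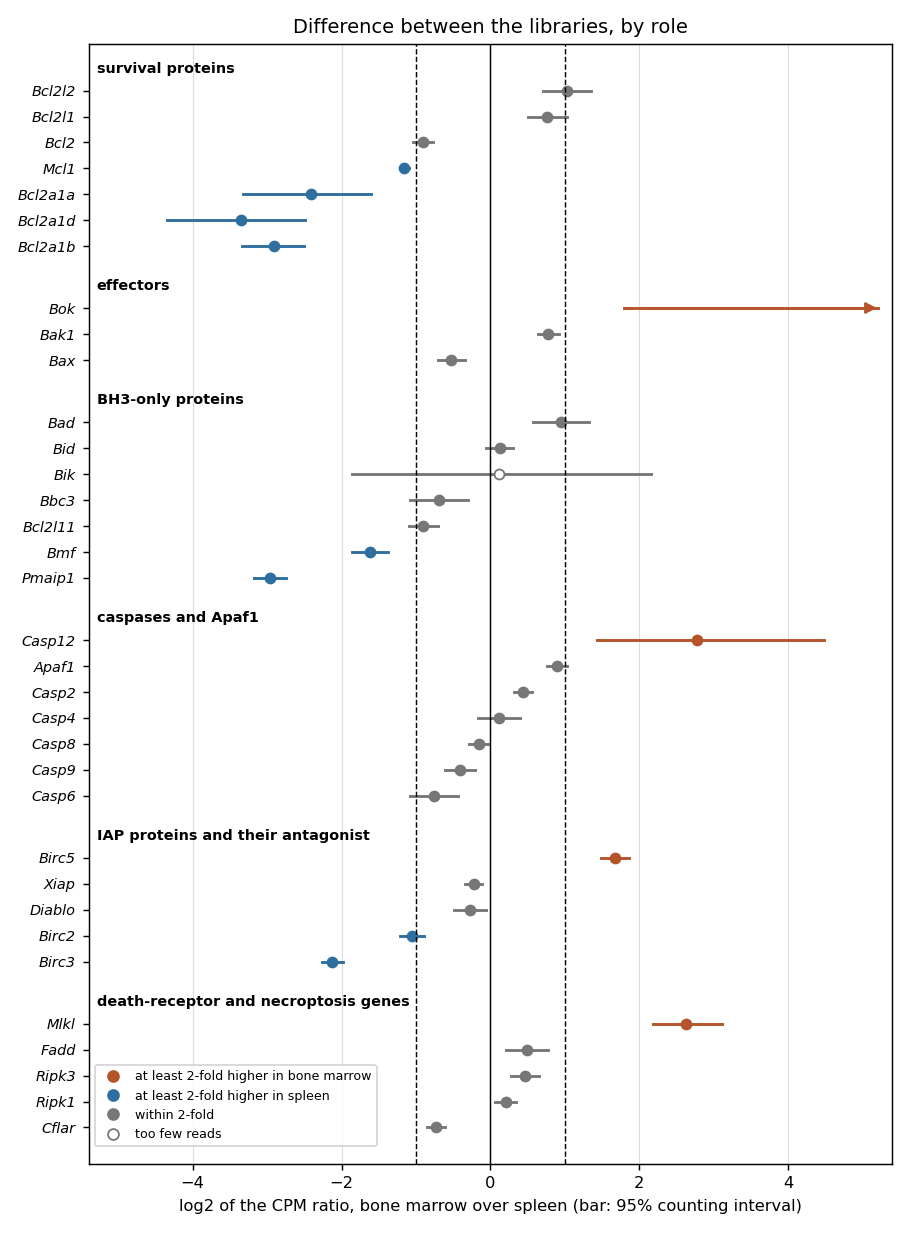
Ratio of scaled CPM, marrow over spleen, on a log2 axis for each gene by role; bars are 95% counting intervals, dashed lines mark 2-fold and the arrow marks a gene with no read in spleen. Colours follow the 2-fold rule on log2(CPM + 1), under which Bcl2l2, at a CPM ratio of 2.04, stays within 2-fold.

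With 1 library per tissue there was no replicate check and no test between tissues. All intervals are exact 95% counting intervals of a ratio, and they do not include differences between mice, sorts or library preparations. Levels of different genes are compared only as RPKM (reads per kilobase of gene and per unit of library depth), and folds between libraries are ratios of scaled CPM.

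By uniquely placed reads, Mcl1 was the highest of the survival genes in both tissues, and spleen held more of it. MCL1 is a short-lived survival protein. Mcl1 had 3976 reads in marrow and 7963 in spleen, or 118 and 275 RPKM, and it was the highest of the 34 genes per length in each library. On the CPM scale it was 2.23-fold higher in spleen (2.14 to 2.31). Its log2 ratio was -1.15, beside a median of -1.04 over the 16 macrophage markers, and the part of macrophage content was not tested. Its share of the summed RPKM of the 7 survival genes was 72.4% in marrow and 69.1% in spleen. The Bcl2a1 copies enter that sum with uniquely placed reads alone. Their part can therefore be too small and the share of Mcl1 too large, by an amount that was not estimated.

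Bcl2 and Bcl2l1 swapped order between the tissues. Bcl2, which encodes the founding survival protein of the family, had 731 reads in marrow and 1231 in spleen, or 10.5 and 20.7 RPKM. Bcl2l1, which encodes BCL-XL and is prominent in erythroid cells and platelets, had 344 and 182 reads, or 15.1 and 9.29 RPKM. Each lay within 2-fold, at a 1.87-fold ratio towards spleen for Bcl2 (1.71 to 2.06) and a 1.70-fold ratio towards marrow for Bcl2l1 (1.42 to 2.05). The ratio of Bcl2 to Bcl2l1 per length was 0.699 in marrow and 2.23 in spleen, a 3.18-fold shift (2.59 to 3.92) that does not depend on how the libraries are scaled. This pair, like the other pairs below, was chosen after its values were seen. B cell genes (476 and 5428 CPM) and T cell genes (287 and 1877 CPM), 12 of 12 each, leaned towards spleen as Bcl2 did. Megakaryocyte and platelet genes (416 and 90.7 CPM, 7 of 9) leaned towards marrow as Bcl2l1 did, while of 8 erythroid genes (330 and 217 CPM) marrow had 0 and spleen 1 past 2-fold, at a median of -0.06 on the log2 scale. Their part was not tested.

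Bcl2l2, which encodes the survival protein BCL-W, was low, with 274 reads in marrow and 121 in spleen (8.19 and 4.21 RPKM). Its CPM ratio was 2.04 towards marrow (1.64 to 2.54), and its log2 ratio of 0.98 lay just inside the 2-fold rule.

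The Bcl2a1 copies, which encode the NF-kB-induced survival protein A1, showed the widest gap among the survival genes. Bcl2a1a had 15 reads in marrow and 72 in spleen, Bcl2a1b had 57 and 386, and Bcl2a1d had 12 and 110. Summed over the 3 copies, 84 reads in marrow faced 568 in spleen, a 7.52-fold difference (5.97 to 9.57). Bcl2a1b took 67.9% of these reads in marrow and 68% in spleen, while the sum differed. By RPKM from uniquely placed reads, which can be too low for these copies, Bcl2a1b ranked 26 among the 34 genes in marrow and 5 in spleen (7.75 and 61.1 RPKM). Bcl2a1c, a further copy, had 1 read in marrow and 15 in spleen. Dendritic cells and activated lymphocytes also express A1, and 9 of 10 markers of conventional dendritic cells were higher in spleen too (196 and 1338 CPM in sum). Neutrophil and granulocyte precursor genes went the other way, with 17 of 18 higher in marrow (49008 and 2292 CPM in sum). The part of any of these cells was not tested, and the same holds for Pmaip1 and Bmf.

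**Figure D3:**
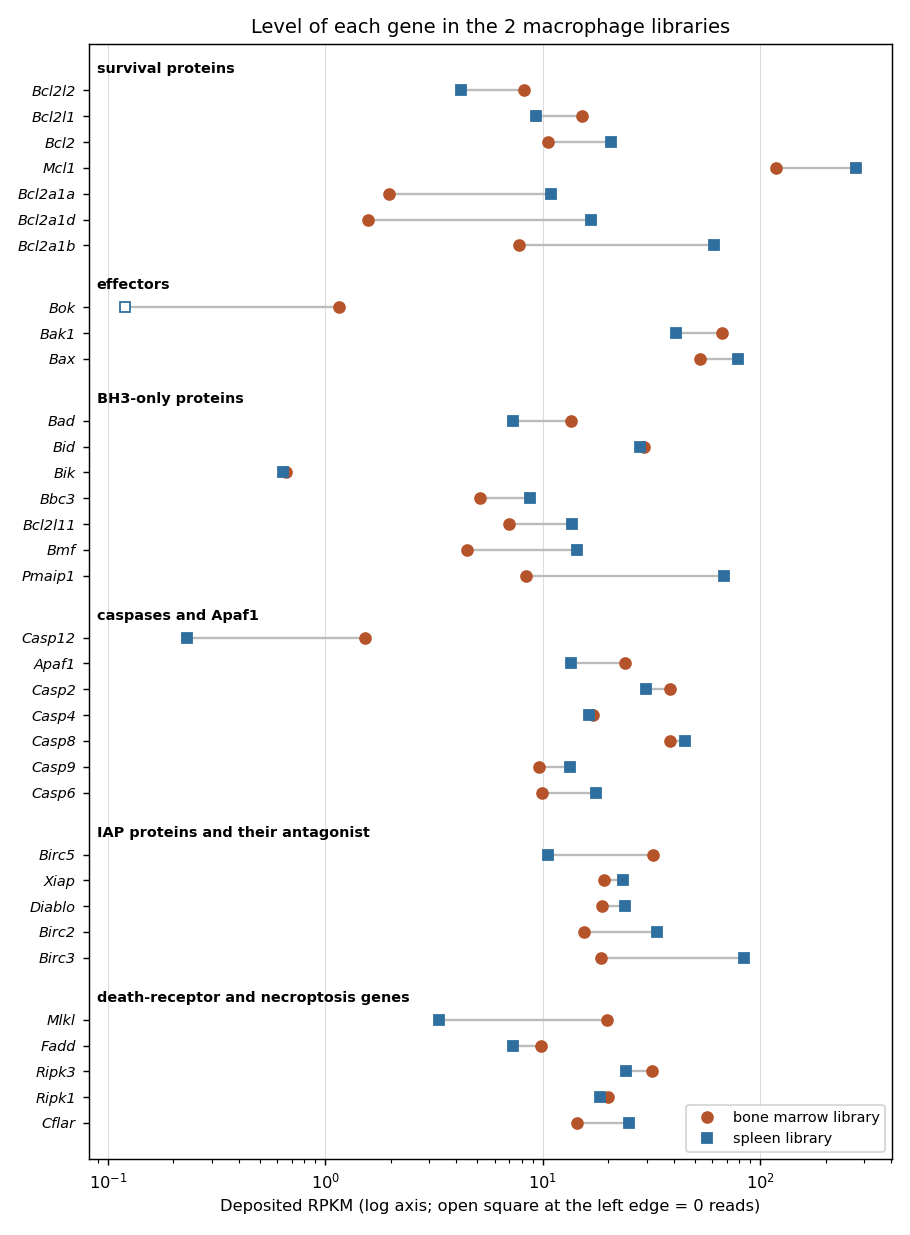
Deposited RPKM of each gene in the marrow library (circles) and the spleen library (squares), by role, on a log axis; the open square stands for Bok, which had no read in spleen. Mcl1 is the rightmost gene in both libraries, at 118 and 275 RPKM.

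The more abundant effector gene was Bak1 in marrow and Bax in spleen. Bak1, which encodes BAK of the outer mitochondrial membrane, had 1299 reads in marrow and 681 in spleen (66.9 and 40.9 RPKM). Bax, whose protein moves from the cytosol to mitochondria on activation, had 440 and 570 reads (52.6 and 79.4 RPKM). The Bak1 ratio was 1.72-fold towards marrow (1.56 to 1.88) and the Bax ratio 1.44-fold towards spleen (1.27 to 1.64), both within 2-fold. Per length, Bax stood at 0.786 of Bak1 in marrow and at 1.94 of Bak1 in spleen, a 2.47-fold shift (2.11 to 2.89). Their sum with Bok was 120.7 RPKM in marrow and 120.2 RPKM in spleen. Bok, a less common effector, had 16 reads in marrow and 0 in spleen. Taking the up to 3 reads that a count of 0 allows, it was at least 4.80-fold higher in marrow, with the 16 reads taken as exact. The exact counting interval of the ratio, which covers both counts, began at 3.47.

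Among BH3-only genes, Pmaip1 stood apart. Pmaip1 encodes NOXA, which binds MCL1 and A1 and promotes MCL1 turnover. It had 213 reads in marrow and 1491 in spleen (8.34 and 68.0 RPKM), a 7.78-fold difference towards spleen (6.74 to 9.03). Its share of the summed RPKM of the 7 BH3-only genes was 12.2% in marrow, behind Bid and Bad, and 48.3% in spleen, where it was first. Against Mcl1, its binding partner, Pmaip1 stood at 0.0706 per length in marrow and at 0.247 in spleen, a 3.50-fold shift (3.01 to 4.07).

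Bmf, whose protein BMF is tied to the cytoskeleton, was also higher in spleen, with 201 and 554 reads and a 3.07-fold difference (2.60 to 3.62). Bcl2l11, which encodes BIM, a binder of all survival proteins and a main killer of lymphocytes and myeloid cells at the end of a response, had 339 reads in marrow and 570 in spleen, a 1.87-fold ratio (1.63 to 2.15) within the 2-fold limit. Per length, Bcl2l11 stood at 0.663 of Bcl2 in marrow and 0.662 in spleen, and the interval of the shift, 0.846 to 1.18, included no shift. Bbc3, which encodes PUMA, a p53 target, had 98 and 142 reads (1.61-fold towards spleen, 1.24 to 2.11).

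The other BH3-only genes did not lean towards spleen. Bid, which links caspase-8 to mitochondria when it is cleaved, had 535 reads in marrow and 442 in spleen, and the interval of its ratio (0.958 to 1.24) included equal levels. Bad, whose protein is silenced by growth-factor kinases, had 188 and 88 reads, a 1.92-fold ratio towards marrow (1.48 to 2.50). Bik had 6 and 5 reads, too few to compare, and its interval ran from 0.274 to 4.47. Bid took 42.7% of the group's RPKM in marrow and 19.9% in spleen, and Bad 19.7% and 5.21%.

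**Figure D4:**
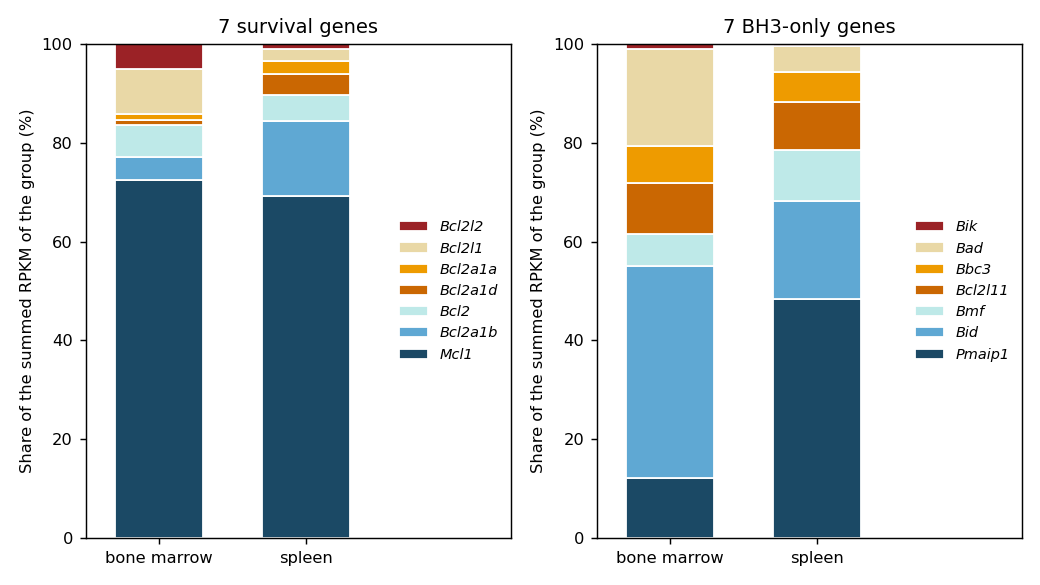
Share of the summed RPKM held by each of the 7 survival genes (left) and each of the 7 BH3-only genes (right) in the marrow and spleen libraries. Mcl1 held 72.4% and 69.1% of the survival genes, while Pmaip1 held 12.2% of the BH3-only genes in marrow and 48.3% in spleen. The Bcl2a1 copies enter with uniquely placed reads alone, so their share can be too small.

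Of the 7 genes for caspases and APAF1, 6 lay within 2-fold, as did 9240 of all 12970 measured genes. The other gene was higher in marrow (14.3%, near the background of 14.1%). Casp8, which encodes the initiator at death receptors, had 960 reads in marrow and 964 in spleen (38.6 and 45.1 RPKM), a 1.12-fold ratio towards spleen (1.02 to 1.22). Casp2, an initiator activated by the PIDDosome, had 1280 and 851 reads, a 1.35-fold ratio towards marrow (1.24 to 1.48). Casp4, which encodes the mouse caspase-11 that senses cytosolic lipopolysaccharide, had 234 and 194 reads, and its interval (0.893 to 1.32) included equal levels. Casp6, an executioner, had 139 and 211 reads, a 1.69-fold ratio towards spleen (1.36 to 2.11). Casp12, an endoplasmic-reticulum caspase, had 38 reads in marrow and 5 in spleen, a 6.83-fold difference with a wide interval (2.69 to 22.2). Summed over the group, 138.8 RPKM in marrow faced 135.8 RPKM in spleen.

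The parts of the apoptosome, the complex that activates caspase-9, differed in opposite directions within that sum. Apaf1, its scaffold, had 1503 reads in marrow and 727 in spleen (23.8 and 13.4 RPKM), a 1.86-fold ratio towards marrow (1.70 to 2.03). Casp9, the caspase it activates, had 360 and 430 reads (9.60 and 13.4 RPKM), a 1.33-fold ratio towards spleen (1.15 to 1.53). Both lay within 2-fold. Casp9 stood at 0.403 of Apaf1 per length in marrow and at 0.995 in spleen, a 2.47-fold shift (2.08 to 2.92).

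Within the IAP family, Birc3 and Birc5 went opposite ways. Birc3 encodes cIAP2, an NF-kB target and ubiquitin ligase of TNF receptor complexes. It had 501 reads in marrow and 1964 in spleen (18.5 and 84.3 RPKM), a 4.36-fold difference towards spleen (3.95 to 4.82), and by RPKM it moved from rank 14 of the 34 genes to rank 2. Its close relative Birc2, which encodes cIAP1, had 469 and 876 reads, a 2.08-fold difference (1.85 to 2.33) that lay just past the 2-fold rule and inside it with a pseudocount of 5. Birc3 to Birc2 per length was 1.20 in marrow and 2.51 in spleen. The marker genes of B cells (12 of 12), T cells (12 of 12) and conventional dendritic cells (9 of 10) were higher in the same library as Birc3, at the sums given above, and their part was not tested.

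Birc5 encodes survivin, which acts in chromosome segregation and is made in dividing cells. It had 1056 reads in marrow and 297 in spleen (32.1 and 10.5 RPKM), a 3.20-fold difference towards marrow (2.81 to 3.65). All 20 genes of cycling cells also leaned towards marrow, with sums of 5012 and 1345 CPM. Their median log2 ratio was 2.04 where that of Birc5 was 1.65, and the part of cycling cells was not tested. Xiap, the direct inhibitor of caspases, and Diablo, the mitochondrial protein that displaces it, both lay within 2-fold. Xiap had 1207 reads in marrow and 1269 in spleen and Diablo 349 and 381. Xiap to Diablo per length was 1.02 and 0.986, and the interval of that shift, 0.813 to 1.14, included no shift.

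Among the genes for RIPK1, RIPK3 and MLKL, Mlkl differed most between the libraries. Ripk1, the kinase that decides between survival and death signalling, had 870 reads in marrow and 680 in spleen, a 1.15-fold ratio towards marrow (1.04 to 1.27). Ripk3, the kinase that phosphorylates MLKL, had 609 and 397 reads, a 1.38-fold ratio (1.21 to 1.57). Mlkl, whose protein breaks the plasma membrane, had 324 reads in marrow and 47 in spleen (19.8 and 3.34 RPKM), a 6.20-fold difference (4.55 to 8.61). Ripk3 to Mlkl per length was 1.62 in marrow and 7.26 in spleen, a 4.49-fold shift (3.21 to 6.40). Neutrophil and granulocyte precursor genes (17 of 18, sums of 49008 and 2292 CPM) and progenitor genes (8 of 10, 1486 and 376 CPM) were higher in the same library as Mlkl, and their part was not tested.

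At the death-receptor complex, Fadd, the adaptor for caspase-8, had 272 and 174 reads, a 1.41-fold ratio towards marrow (1.16 to 1.71). Cflar, which encodes cFLIP, the inactive partner that restrains caspase-8, had 959 reads in marrow and 1427 in spleen, a 1.65-fold ratio towards spleen (1.52 to 1.80). Cflar stood at 0.373 of Casp8 per length in marrow and 0.552 in spleen, a 1.48-fold shift (1.31 to 1.68).

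Promoters were searched for letters of 3 known motifs on both strands: an NF-kB form (GGG, any 2 bases, TTTCC), the interferon-stimulated response element (GAAA, any 2 bases, GAAA) and the cell-cycle homology region (TTTGAA). The window was the 250 bases before each RefSeq start site (GRCm38.p6), found for 32 of the 34 genes. The build used by the authors is not given in those sources. The NF-kB form occurred for 447 of 27025 genes with a listed promoter (1.65%) and for 5 of the 32 genes, namely Birc5, Mcl1, Casp4, Bcl2l1 and Bbc3. Of these 5, 1 was higher in marrow, 1 in spleen and 3 lay within 2-fold. The last 100 bases before the start site are shown for 3 of them and for Birc3, which had the larger difference towards spleen and no match, with matches in capitals:
Birc5, chr11:117849137-117849236, plus strand: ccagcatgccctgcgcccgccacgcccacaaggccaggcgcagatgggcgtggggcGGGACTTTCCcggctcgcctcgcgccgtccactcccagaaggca
Mcl1, chr3:95658621-95658720, plus strand: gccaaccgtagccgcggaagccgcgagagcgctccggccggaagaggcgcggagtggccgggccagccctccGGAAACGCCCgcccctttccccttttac
Casp4 (first listed start), chr9:5308749-5308848, plus strand: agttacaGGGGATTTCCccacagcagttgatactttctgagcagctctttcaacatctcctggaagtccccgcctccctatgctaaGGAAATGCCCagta
Birc3, chr9:7873171-7873270, minus strand: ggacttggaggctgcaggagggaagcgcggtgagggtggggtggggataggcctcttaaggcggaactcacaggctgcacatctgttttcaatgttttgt
In GENCODE M21, 21 of the bases shown for Casp4 and 16 of those for Birc3 lie in an exon of the same gene. For Birc5 and Mcl1 the number was 0. Casp4 held 2 matches and was at 24.9 CPM in marrow and 22.9 CPM in spleen. The interferon element occurred for 0 of the 32 genes and for 3.46% of all genes. The cell-cycle letters, which are short, occurred for 18.3% of all genes and for 10 of the 32 (31.2%), or in 10 of their 45 promoters (16% of all 32851 promoters). Of these 10 genes, 3 are the near-identical Bcl2a1 copies. By call, Casp12 was higher in marrow, 4 (Mcl1 and the Bcl2a1 copies) in spleen and 5 within 2-fold. Birc5 was not among them. These matches describe letters and not bound sites.

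A further 6 lists of the death pathways, 96 genes in all, placed these genes in context. Of the 90 measured, 8 were higher in marrow (background 14.1%) and 16 in spleen (background 14.6%), and their median log2 ratio was -0.16. In the list of further BCL2-family, caspase and BIR-domain genes, 1 of 13 measured genes (7.69%) was higher in marrow. This was the mitophagy receptor Bnip3 (136 and 56 reads). Spleen was higher for 4 (30.8%), and the median was -0.37. Those 4 included Birc6, a giant IAP and ubiquitin ligase, with 1716 and 3392 reads (2.20-fold, 2.07 to 2.33). Bcl2l14 (13 and 49 reads) and the further copy Bcl2a1c (1 and 15 reads) were also among them, at low counts.

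Of 12 genes of the mitochondrial step, 1 (8.33%) was past 2-fold in each direction. For so short a list that is near the backgrounds of 14.1% towards marrow and 14.6% towards spleen. The median log2 ratio was 0.63 against 0.03 over all measured genes. Cycs, which encodes cytochrome c, had 1438 and 712 reads (1.82-fold, 1.66 to 1.99). Vdac1, a channel of the outer membrane, was 2.35-fold higher in marrow, and Xaf1, an interferon-induced antagonist of XIAP, 2.47-fold higher in spleen. Caspase substrates had 2 of 13 higher in marrow (15.4%, near its background) and 0 in spleen, with a median of 0.21. Those 2 were Gsdme, which encodes a pore-forming gasdermin (288 and 29 reads, 8.93-fold), and the nuclear lamin Lmnb1 (4691 and 1283 reads). Parp1, a DNA repair enzyme cleaved in apoptosis, had 3010 and 2331 reads.

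Of 17 genes on the death-receptor list, 2 (11.8%) were higher in marrow and 3 (17.6%) in spleen, shares near the backgrounds of 14.1% and 14.6%, and the median was -0.25. Fas, the receptor for Fas ligand, had 30 reads in marrow and 133 in spleen, a 4.93-fold difference (3.30 to 7.59). Tnfrsf25, a T cell death receptor, had 20 and 135 reads, and Tnfrsf10b, the mouse TRAIL receptor, 56 and 116. In the opposite direction, Tnfrsf1a, the main TNF receptor, had 1375 and 567 reads (2.18-fold, 1.98 to 2.41), and Tnfrsf21 had 1244 and 283. Regulators of RIPK1 and necroptosis gave 2 of 18 higher in spleen (11.1%, near its background of 14.6%) and 0 in marrow (background 14.1%), with a median of -0.42. These were Zbp1, a nucleic acid sensor that can engage RIPK3 (206 and 698 reads), and Ripk2, the kinase of NOD receptors (109 and 233 reads). So Zbp1 was 3.77-fold higher in spleen, where Mlkl was lower.

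The p53 list held 6 of 17 measured genes higher in spleen (35.3%, background 14.6%) and 2 in marrow (11.8%, near its background of 14.1%), with a median of -0.34. Trp53 itself, which encodes p53, had 1626 and 1307 reads (1.12-fold towards marrow, 1.04 to 1.20). On log2(CPM + 1), the 3 measured genes of the list with the largest differences towards spleen were Trp53inp1 (771 and 2575 reads), Zmat3 (50 and 174) and Btg2 (1146 and 3007). By CPM ratio, Sesn2 and Sesn1 (2.94) came just before Btg2 (2.92). Perp, a membrane protein, had 54 reads in marrow and 1 in spleen, a ratio of 48.6 (8.35 to 1953), and the mitotic gene Gtse1 had 495 and 119 reads. Pmaip1 and Bbc3, also p53 targets, were described above at 7.78-fold and 1.61-fold towards spleen. Cdkn1a, a further p53 target, had 214 and 112 reads (1.72-fold towards marrow, 1.36 to 2.18). It was 1 of 9 measured genes of the list within 2-fold.

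**Figure D5:**
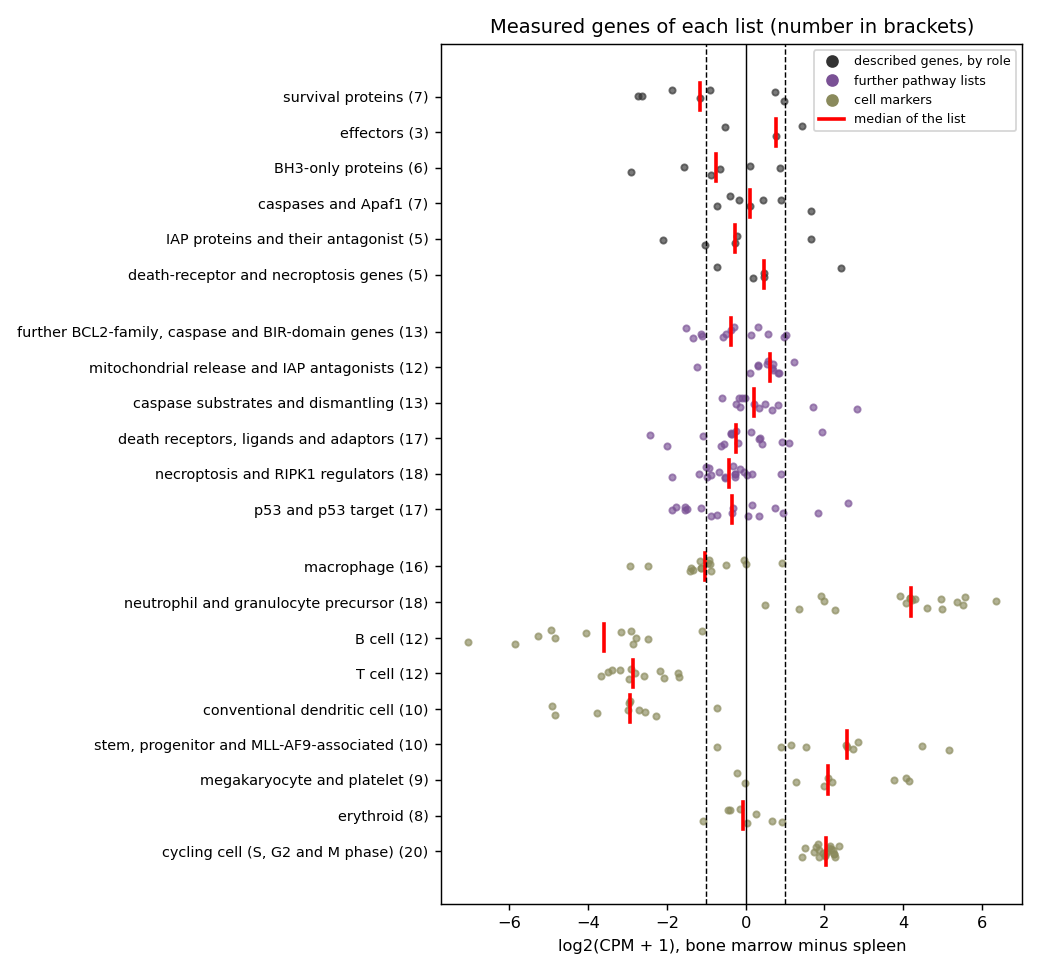
Difference of log2(CPM + 1), marrow minus spleen, for each measured gene of the described groups, the further pathway lists and the cell marker lists; red bars are list medians and dashed lines mark 2-fold. Medians of the described groups and pathway lists lie between -1.15 and 0.77, while those of the marker lists run from -3.61 for B cell genes to 4.21 for neutrophil and granulocyte precursor genes.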

How the data were processed

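RNA-seq was measured in macrophages from bone marrow and spleen, 1 library each. The authors deposited a table per library that lists, per the file headers, each gene's count of uniquely placed reads, its length, the percent of that length covered by reads, and RPKM. The deposited counts are whole numbers that sum to the total in each header, and the deposited RPKM equals the count scaled by length and that total within 6.7e-06 percent. For the aligner, build and annotation, nothing is stated in the sources used here. A gene missing from a table has 0 counted reads, and 0 allows 3 reads at most (0.319 CPM in marrow, 0.355 CPM in spleen).

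Genes were joined on the Entrez identifier, and the 34 genes were taken by deposited symbol. CPM were computed with edgeR 4.0.16 in R 4.3.3, using TMM factors of 0.977 (marrow) and 1.02 (spleen). Differences were taken on log2(CPM + 1), a scale on which changes of low genes come out too small, with a 2-fold rule. Fold intervals are exact conditional binomial (Clopper-Pearson) intervals at 95%, and shifts of a ratio between 2 genes have exact conditional odds-ratio intervals (scipy 1.17.1). They cover counting error only, and they can be too narrow even for that, because reads copied by PCR are not independent molecules. Genes of similar density had 0.8 to 1.25 times the reads per base and 0.5 to 2 times the length. The procedure was tested on simulated counts. All 34 genes are named, along with up to 3 genes per direction past the 2-fold rule in each further list, of which some are given by count, and fixed anchor genes. Sesn1, Sesn2 and Cdkn1a of the p53 list are named besides. Some genes of 1 further list are not reported here and were left out of its counts. The genes and lists were chosen with earlier results of these data known. Alternatives were size factors from DESeq2 1.42.0, library totals, other pseudocounts and floors, a 4-fold rule, RPKM, and versions without the Bcl2a1 copies or without marker genes in the scaling. The planned protein comparison was not run.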

Additional observations from a re-analysis of the deposited data

How the results depend on the processing

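The number of genes higher in bone marrow was 4, and it fell to 2 with a pseudocount of 5 and to 2 with a floor of 10 CPM, in both cases through Bok and Casp12, and to 1 with a 4-fold rule. The number higher in spleen was 8, against 4 with a 4-fold rule and 5 without the Bcl2a1 copies. It was 7 with a pseudocount of 5, through Birc2 (-0.98), and 7 with a floor of 10 CPM, through Bcl2a1a. A pseudocount of 0.1 brought Bcl2l2 past 2-fold (1.02). DESeq2 size factors, library totals, deposited RPKM, no floor, and scaling without marker genes left both counts at 4 and 8. The median log2 ratio ranged from -0.29 with library totals to -0.02 without the Bcl2a1 copies. No called gene changed direction under any of these settings, but all of them use the same counts and could hardly reverse a 2-fold difference. No paired analysis was possible because each tissue had 1 library, and no library could be left out. Depth limits Bik, Bok, Casp12, Bcl2a1a and Bcl2a1d most, each with fewer than 20 reads in a library.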
